A study of Mus musculus with 6 samples.

Results

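The 10 genes described here set the step from G1 to S phase of the cell cycle. They are the CDK inhibitors Cdkn1a, Cdkn1b, Cdkn2a, Cdkn2c and Cdkn2d, the D cyclins Ccnd1, Ccnd2 and Ccnd3, and the kinases Cdk4 and Cdk6. They were chosen by gene name, with all their probes, and make up 10 of the 20660 genes and 15 of the 55681 probes of the array. Expression was measured on 6 single-colour mouse arrays, 1 for each combination of genotype and sorted progenitor population.

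D cyclins bind Cdk4 and Cdk6, and the active kinases phosphorylate the retinoblastoma protein, which releases E2F factors and lets a cell enter S phase. Inhibitors of the INK4 family (Cdkn2a, Cdkn2b, Cdkn2c, Cdkn2d) bind Cdk4 and Cdk6 directly, while those of the CIP/KIP family (Cdkn1a, Cdkn1b, Cdkn1c) act on cyclin complexes and most strongly on those of Cdk2. In blood-forming tissue the inhibitors are known for holding stem cells in quiescence and for stopping the cycle of lymphoid precursors while they rearrange their antigen receptor genes.

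The cells came from fetal liver of C57BL6/J mice at E18.5, a day of embryonic life close to birth. One genotype was wild type and the other carried the label Satb1-null, for loss of the chromatin organiser Satb1, with littermates as the wild type. The HSC-enriched cells (haematopoietic stem cells) were Lin-, c-kitHi, Sca-1+ and Flt3-. The LMPP-enriched cells (lymphoid-primed multipotent progenitors) had the same markers but were Flt3+, and the CLP-enriched cells (common lymphoid progenitors) were Lin-, c-kitLo, Sca-1Lo and IL7Rα+. Cy3-labelled cDNA was amplified from 6.1 ng of total RNA. Pooling of embryos is not stated, and neither is whether populations of a genotype share embryos. Each group has 1 array, so a difference between 2 arrays has no replicate check and no p-value, and only a fit over all 6 arrays was tested.

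A level is a probe's log2 intensity minus the array's 75th percentile, so that a difference of 1 is 2-fold. Levels of different probes are not comparable with each other. The scanner software rated 52.4% to 57.7% of an array's spots as well above background and none as saturated. For the 432 probes with repeated spots, the median SD between spots ran from 0.0792 to 0.0886. The highest or lowest level of each sort marker followed the gates in both genotypes. Flt3 was highest in LMPP (3.21 in wild type and 3.32 with the null label), and Il7r was highest in CLP (1.61 and 1.55). Kit (2.79 and 3.74) and Ly6a, which encodes Sca-1 (0.21 and -0.50), were lowest in CLP. Wild type Ly6a was 0.29 in HSC, close to its CLP level. Flt3 in HSC read 1.18 in wild type and 1.35 with the null label, against 0.85 and 1.78 in CLP. The Satb1 probe read -0.03, 2.0 and 0.71 in wild-type cells (HSC, LMPP, CLP) and -0.59, 1.96 and 0.65 on the null-labelled arrays, and its place relative to the deleted part of the gene is not given, so it does not check the labels. The wild type arrays lay in one row of the slide and the null-labelled arrays in another, and Xist, the transcript of the inactive X chromosome, was not well above background on the wild type arrays and at 4.74, 4.18 and 4.45 on the null-labelled ones. Genotype, slide row and the state of Xist therefore cannot be told apart. These are bulk samples, in which fewer cells of a type and less RNA per cell cannot be told apart either.

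Of the 10 genes, 9 could be tested. Cdkn2a was below the filter, which asked for a gene's brightest probe to be well above background on at least 3 arrays. Cdkn1b, Cdkn2d, the D cyclins and both kinases were well above background on all 6 arrays, as was the brighter probe of Cdkn1a, and Cdkn2c was so on 5. The fit was made with limma on genotype and population, with p-values adjusted over 13012 genes, and its residual spread is how far a difference varies over the other factor. Between CLP and LMPP it called 3 of the 9 genes at an adjusted p under 0.05, against 8.7% of all genes tested. Ccnd3 and Cdkn2c were higher in CLP, and Cdkn1a was lower. The same 3 genes were called in the same directions between CLP and HSC, where 8.69% of all genes were called. Leaving out any 1 array left 1 residual degree of freedom. Without any 1 of the HSC or LMPP arrays the 3 genes lost their calls, as did every other gene of the table. With a CLP array left out instead, calls remained in both comparisons. Without the wild type CLP array Ccnd3 lost its call against HSC (limma adjusted p = 0.05775), and with no filter on background all 3 genes lost theirs. Both comparisons use the CLP arrays, so their values are given side by side and are not independent of each other. Between LMPP and HSC the fit called 0 genes of the whole table, and at an unadjusted p under 0.05 it held 8.58% of all genes and 0 of the 9. For genotype it called 1 gene of the whole table, Xist, which is 0.00769%, and 0 of the 9.

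RefSeq promoter windows of the 3 called genes are shown because these genes moved between the same populations. Each window runs from 250 bases before to 50 bases after an annotated start, 5′ to 3′, and coordinates are those of the RefSeq table's build GRCm38.p6. Capitals mark matches to 5 motifs that were searched on both strands: CATG followed by any 6 bases and CATG again, the core pair of a p53 site; CACCTG, bound by E proteins; CACGTG, bound by Myc and its partners; and TTTCCCGC and TTTGGCGC, bound by E2F factors. None of the motifs overlaps another in the windows printed.
Cdkn1a upstream start (chr17:29090729-29091028, + strand): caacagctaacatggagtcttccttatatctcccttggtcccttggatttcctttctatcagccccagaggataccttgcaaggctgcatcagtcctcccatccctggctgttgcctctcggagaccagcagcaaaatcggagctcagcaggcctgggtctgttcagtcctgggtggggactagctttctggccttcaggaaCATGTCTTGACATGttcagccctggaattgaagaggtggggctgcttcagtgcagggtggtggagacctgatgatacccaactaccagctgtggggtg
Cdkn1a downstream start (chr17:29093519-29093818, + strand): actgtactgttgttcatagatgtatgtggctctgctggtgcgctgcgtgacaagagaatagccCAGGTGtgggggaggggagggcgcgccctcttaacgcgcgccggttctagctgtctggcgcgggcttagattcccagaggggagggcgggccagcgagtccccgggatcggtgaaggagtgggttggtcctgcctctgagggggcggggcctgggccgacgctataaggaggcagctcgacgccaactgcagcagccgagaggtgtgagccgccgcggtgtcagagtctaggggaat
Cdkn2c upstream start (chr4:109666707-109667006, - strand): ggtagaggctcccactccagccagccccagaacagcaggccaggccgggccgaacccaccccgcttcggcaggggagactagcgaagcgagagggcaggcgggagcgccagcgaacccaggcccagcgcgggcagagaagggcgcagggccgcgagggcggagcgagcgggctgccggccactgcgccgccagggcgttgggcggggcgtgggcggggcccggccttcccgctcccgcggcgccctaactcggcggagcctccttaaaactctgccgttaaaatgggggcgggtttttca
Cdkn2c downstream start (chr4:109665323-109665622, - strand): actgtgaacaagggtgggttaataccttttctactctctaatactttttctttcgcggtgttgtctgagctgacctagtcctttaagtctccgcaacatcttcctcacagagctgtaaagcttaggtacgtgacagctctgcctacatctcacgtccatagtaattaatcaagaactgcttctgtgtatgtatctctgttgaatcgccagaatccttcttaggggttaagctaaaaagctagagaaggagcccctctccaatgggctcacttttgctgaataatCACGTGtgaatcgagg
Ccnd3 upstream start (chr17:47504801-47505100, + strand): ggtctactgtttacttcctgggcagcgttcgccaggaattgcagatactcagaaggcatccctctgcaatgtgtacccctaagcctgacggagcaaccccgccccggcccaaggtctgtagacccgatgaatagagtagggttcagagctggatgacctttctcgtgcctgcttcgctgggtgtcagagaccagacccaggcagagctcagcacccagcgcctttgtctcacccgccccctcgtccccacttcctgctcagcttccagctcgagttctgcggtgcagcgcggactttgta
Ccnd3 downstream start (chr17:47593217-47593516, + strand): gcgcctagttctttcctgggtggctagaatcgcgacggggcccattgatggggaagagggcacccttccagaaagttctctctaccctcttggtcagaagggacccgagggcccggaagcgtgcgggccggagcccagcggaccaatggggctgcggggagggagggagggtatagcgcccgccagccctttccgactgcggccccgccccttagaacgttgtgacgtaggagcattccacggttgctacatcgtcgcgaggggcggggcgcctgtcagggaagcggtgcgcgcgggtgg

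The upstream Cdkn1a window holds the p53 core pair, beginning 48 bases before the start, and 0.712% of the 32851 RefSeq promoter windows of this length hold a match. The downstream Cdkn1a window holds the E protein box 187 bases before the start, a motif found in 20.2% of windows. The downstream Cdkn2c window holds the Myc box 34 bases after the start, and 7.15% of windows hold one. Neither Ccnd3 window and not the upstream Cdkn2c window matched any of the 5 motifs. Among the windows not printed, that of Cdk4 held 4 Myc boxes, that of Cdk6 held 1, and the upstream window of Cdkn2a held 1 match to TTTCCCGC, which 1.07% of all windows hold. TTTGGCGC occurred in 0.514% of all windows and in none of the 12 windows of 8 genes that could be read. The table holds no window for Ccnd1 or Ccnd2. The median A+T content of the 12 windows was 34.5%, against 47.3% over all windows. The motifs were chosen after values or sequences were seen, so the shares do not measure how unusual a match is. The matches describe the letters only.

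**Figure D1:**
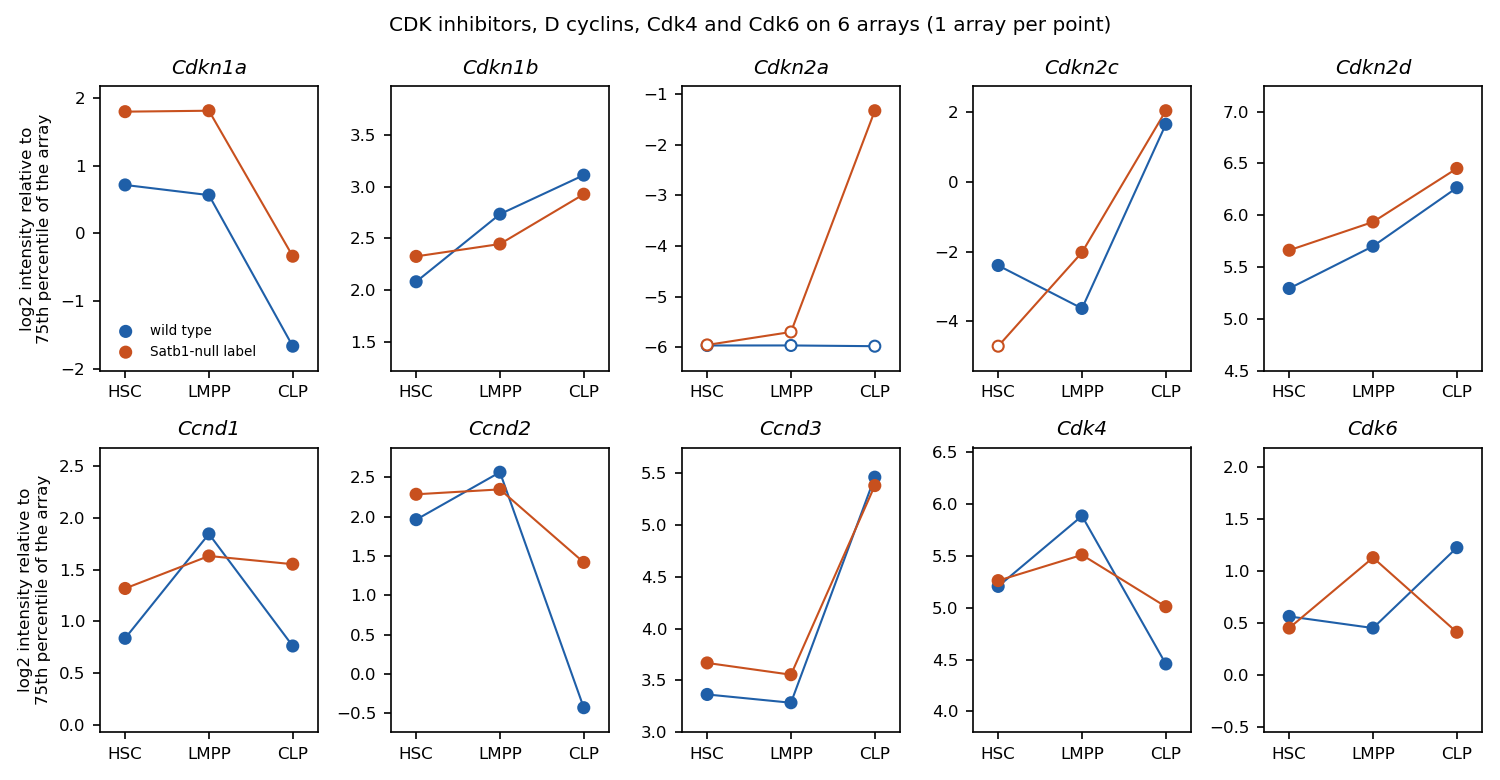
Levels of the 10 genes (log2 intensity minus the array's 75th percentile, brightest probe, for Cdkn2a the probe that was detected) in HSC, LMPP and CLP, with 1 array per point, blue for wild type and orange for the Satb1-null label; open points were not well above background and each panel has its own scale. Cdkn2c and Ccnd3 are highest in CLP in both genotypes, and the null-labelled Cdkn1a points lie above the wild type ones in all 3 populations.

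Cdkn1a encodes p21, the CIP/KIP inhibitor induced by p53 and by other stress and differentiation signals. Its brighter probe (A_51_P363947, chromosome 17, 10 spots on each array) read 0.72 in wild type HSC, 0.57 in LMPP and -1.67 in CLP. On the null-labelled arrays it read 1.80, 1.82 and -0.34. In both genotypes HSC and LMPP lay close together and CLP lay lower, and within each population the null-labelled array lay higher. CLP minus LMPP was -2.20 on the log2 scale in the fit, or 4.58-fold lower (SE 0.25, limma adjusted p = 0.01715). Against HSC the fitted difference was -2.26 (SE 0.25, limma adjusted p = 0.01731). The single-array differences between CLP and LMPP were -2.24 in wild type and -2.15 on the null-labelled arrays. Between LMPP and HSC they were -0.15 and 0.01, both smaller than the scanner's own error of about 0.205.

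Cdkn1a differed between genotypes by 1.09 (2.12-fold) in HSC, by 1.25 (2.38-fold) in LMPP and by 1.33 (2.52-fold) in CLP, each with a scanner error between 0.204 and 0.215. Over all genes compared the median genotype difference was 0.13, -0.04 and 0.05 in these populations. The fitted difference over the 3 populations was 1.22 with a 95% confidence interval from 0.69 to 1.75. It had an unadjusted p of 0.002107 in limma and an adjusted p of 0.8358, so it was not called. At an unadjusted p under 0.05 Cdkn1a was 1 of 726 genes, 5.58% of those tested. It was the only one of the 9 genes past 2-fold in 1 direction in HSC, LMPP and CLP alike, as were 0.389% of all genes compared. That count fell to 0 under other settings that put a population below 2-fold, and the difference in HSC ranged from 0.95 to 1.27 over all settings. In LMPP it ranged from 0.51, with the mean over the probes of the gene, to 1.30. In CLP it ranged from -0.14, with that mean, to 1.33, and it was 0.75 with normexp background correction (an alternative to the scanner's own correction).

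The 10 spots of this probe show what the array itself adds to these values. In HSC the spots ran from 0.65 to 0.79 in wild type and from 1.73 to 1.85 on the null-labelled array. In LMPP they ran from 0.49 to 0.68 and from 1.78 to 1.89. In CLP, the dimmest population, they ran from -1.82 to -1.43 and from -0.59 to -0.14. The spots of the 2 genotypes overlapped in none of the populations, after the spots with an outlier mark were left out. How many of the other probes with repeated spots also showed no overlap was not counted. The lack of overlap therefore does not set Cdkn1a apart from other genes. Genotype differences over all genes compared had SDs of 0.77 (HSC), 0.67 (LMPP) and 0.94 (CLP). The median SD between spots of repeated probes was smaller, from 0.0792 to 0.0886. Spots of 1 array share 1 RNA sample, so the spread between spots holds no variation between animals, sorts or amplifications.

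**Figure D2:**
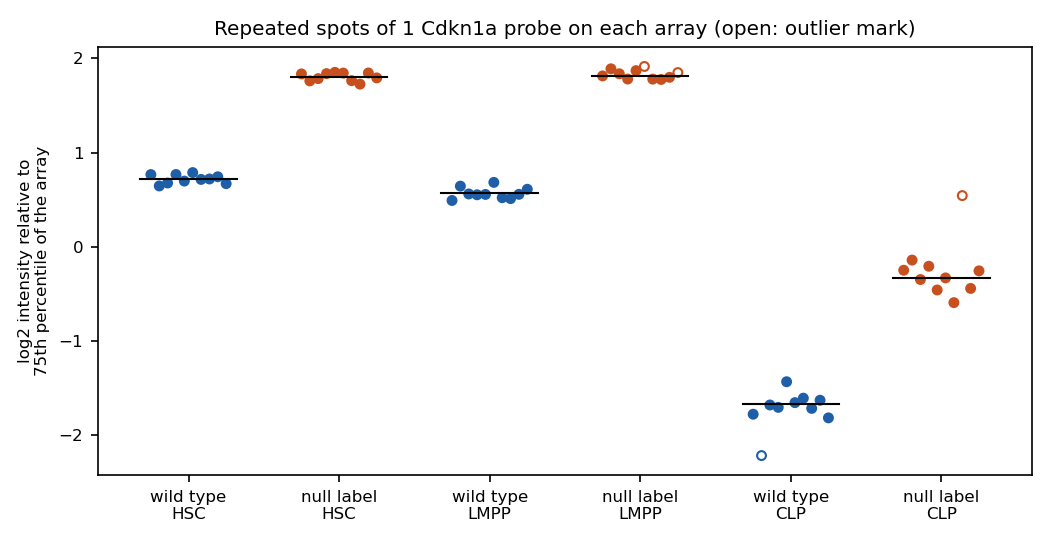
Levels of the 10 spots of the brighter Cdkn1a probe on each of the 6 arrays (log2 intensity minus the array's 75th percentile); filled points were used, open points carried the scanner's outlier mark, and bars are means of the used spots. The null-labelled spots lie above the wild type spots in HSC, LMPP and CLP, with SDs of the used spots from 0.0433 to 0.142.

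A dim Cdkn1a probe assigned to another RefSeq transcript (A_55_P1986282, 1 spot) gave a different profile. It was well above background only in LMPP, at -2.44 in wild type and -2.66 on the null-labelled array, and read between -6.31 and -4.25 on the other 4 arrays. The genotype difference in LMPP was -0.22, within the scanner error of 0.270. LMPP was at least 3.01-fold above HSC in wild type and at least 2.59-fold on the null-labelled arrays. Each bound was taken against the dim value or the array's detection floor (its lowest signal rated well above background), whichever was higher. Averaging the 2 probes turned the Cdkn1a genotype difference in CLP to -0.14.

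Cdkn1b encodes p27, the CIP/KIP inhibitor that accumulates in resting cells. It read 2.08, 2.73 and 3.11 in wild-type cells (HSC, LMPP, CLP) and 2.33, 2.45 and 2.93 on the null-labelled arrays (A_55_P2026562, chromosome 6). The order HSC, LMPP, CLP was the same in both genotypes, and the 2 neighbours in HSC and LMPP on the null-labelled arrays differed by 0.12, within the scanner error of 0.204. CLP was above HSC by 0.81 in the fit (SE 0.28), which did not pass (limma adjusted p = 0.144). The genotype differences were 0.25, -0.29 and -0.18 and had no common direction.

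Cdkn2a encodes p16INK4a and, from another reading frame, the p53 activator ARF. Both its probes belong to chromosome 4. The brighter (A_55_P2008437) read -5.47 to -4.17 and was not well above background on any array, and the dimmer (A_55_P2008438) was so only in null-labelled CLP, at -1.33. Its values elsewhere lay between -5.98 and -5.70, below the lowest signal well above background of their arrays. The null-labelled CLP value was at least 6.96-fold above wild type CLP, with a scanner error of 1.45 on the log2 scale. It rests on 1 spot, and the other Cdkn2a probe read -5.47 on the same array and was not well above background.

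Cdkn2c encodes p18INK4c, an inhibitor of Cdk4 and Cdk6 that limits the expansion of progenitors and lymphocytes. Its probe (A_55_P2074796, chromosome 4) read -2.40, -3.63 and 1.65 in wild-type cells (HSC, LMPP, CLP). On the null-labelled arrays it read -4.72, not well above background, -2.02 and 2.04. The CLP arrays of both genotypes lay above all HSC and LMPP arrays, and the order of HSC and LMPP differed between the genotypes. CLP exceeded LMPP 39.1-fold in wild type and 16.8-fold on the null-labelled arrays. It exceeded HSC 16.6-fold in wild type and at least 67.7-fold on the null-labelled arrays. These folds hold for the scanner's processed signal: with normexp CLP minus LMPP was 3.39 and 3.19 on the log2 scale in the 2 genotypes, and CLP minus HSC was 2.82 and 3.99. The fit gave 4.68 against LMPP (SE 0.78, limma adjusted p = 0.03336) and 5.07 against HSC (SE 0.78, limma adjusted p = 0.03182), with the null-labelled HSC value raised to the array's lowest detected signal. With all dim values left as measured the fitted differences were 4.68 and 5.41, and the limma adjusted p was 0.07164 and 0.05737. With normexp they were 3.29 and 3.40, and the limma adjusted p was 0.001572 and 0.001569. With 1 array left out the difference from LMPP lay between 3.56 (without wild type LMPP) and 5.80 (without null-labelled LMPP). That from HSC lay between 3.75 (without null-labelled HSC) and 6.39 (without wild type HSC). The genotype difference was at least 3.11-fold lower in HSC, 3.05-fold higher in LMPP and 1.31-fold higher in CLP. With normexp it was -0.73 on the log2 scale in HSC and 0.64 in LMPP, both under 2-fold. The HSC and LMPP probe signals were among the dim ones, with a scanner error of 0.311 for the LMPP difference and 0.511 for the HSC difference.

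Cdkn2d encodes p19INK4d, the remaining INK4 inhibitor. It read 5.29, 5.70 and 6.26 in wild-type cells (HSC, LMPP, CLP) and 5.66, 5.93 and 6.45 on the null-labelled arrays (A_55_P2022251, chromosome 9). The order HSC, LMPP, CLP was the same in both genotypes, as for Cdkn1b. The null-labelled arrays were above the wild type arrays by 0.37, 0.23 and 0.19. The scanner error of each was 0.204, so the CLP difference lay within it and the LMPP difference close to it. The difference between CLP and HSC was 0.88 (SE 0.25) and did not pass (limma adjusted p = 0.1018). With normexp background correction it did (limma adjusted p = 0.03134).

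Ccnd1 encodes cyclin D1. It read 0.84, 1.84 and 0.76 in wild-type cells (HSC, LMPP, CLP) and 1.32, 1.63 and 1.55 on the null-labelled arrays (A_66_P111562, chromosome 7). In wild type LMPP stood above HSC and CLP, which differed by less than the scanner error. The null-labelled arrays covered a narrower range. No fitted difference passed, with limma adjusted p between 0.3383 and 0.9029 over the 4 comparisons.

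Ccnd2 encodes cyclin D2, the D cyclin that many growth factor signals induce. It read 1.96, 2.56 and -0.43 in wild-type cells (HSC, LMPP, CLP; A_52_P53906, chromosome 6). On the null-labelled arrays it read 2.28, 2.35 and 1.42, so the wild type CLP array stood apart from the other 5. CLP was below LMPP 7.95-fold in wild type and 1.90-fold on the null-labelled arrays. The genotypes differed by 0.32 in HSC, by -0.22 in LMPP and by 1.85, or 3.59-fold, in CLP. In the fit CLP differed from LMPP by -1.96 (SE 0.54), which did not pass (limma adjusted p = 0.09868). Without the null-labelled CLP array the difference was -2.86 and passed (limma adjusted p = 0.01488), and with normexp it was -1.58 and passed (limma adjusted p = 0.03624). Against HSC it was -1.63 (limma adjusted p = 0.1399), and without the null-labelled CLP array it was -2.52 and passed (limma adjusted p = 0.02071). Without the wild type CLP array the differences were -1.06 from LMPP and -0.73 from HSC, and neither passed. Whether the CLP difference depends on genotype was not tested, since each cell of that comparison is 1 array.

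Ccnd3 encodes cyclin D3, a D cyclin known for its part in lymphoid and erythroid development. Its brighter probe (A_55_P2041075, chromosome 17) read 3.36, 3.29 and 5.46 in wild-type cells (HSC, LMPP, CLP) and 3.67, 3.56 and 5.38 on the null-labelled arrays. Both CLP arrays stood above the other 4, and HSC and LMPP of a genotype differed by less than the scanner error. The fit gave 2.0 between CLP and LMPP, which is 4.0-fold (SE 0.26, limma adjusted p = 0.02085). It gave 1.90 between CLP and HSC (SE 0.26, limma adjusted p = 0.02602). A dimmer Ccnd3 probe (A_51_P238448) read 1.31, 1.13 and 3.71 in wild-type cells, with 1.74, 1.69 and 3.68 under the null label. In a fit of every named probe its CLP differences were 2.28 against LMPP and 2.17 against HSC (limma adjusted p = 0.02228 and 0.02617). The genotype differences of the brighter probe were 0.30, 0.27 and -0.08, all below 2-fold.

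Cdk4 encodes a kinase partner of the D cyclins and has 3 probes on chromosome 10. The brightest (A_55_P1998188) read 5.21, 5.89 and 4.46 in wild-type cells (HSC, LMPP, CLP) and 5.26, 5.51 and 5.01 on the null-labelled arrays. In both genotypes LMPP was highest and CLP lowest. CLP was below LMPP by 1.43 in wild type and by 0.50 on the null-labelled arrays. The fitted difference was -0.96 (SE 0.32) and did not pass (limma adjusted p = 0.1401). The second probe (A_55_P2163143) read 3.55, 4.37 and 3.06 for HSC, LMPP and CLP of wild type, with 3.76, 4.11 and 3.53 under the null label. The third (A_55_P2166639) read 3.10, 3.65 and 3.0, with 3.22, 3.37 and 2.67. Both put LMPP highest and CLP lowest in each genotype, like the first. By the third probe, however, CLP minus HSC in wild type was -0.10, within the scanner error of 0.204. The genotype difference in CLP was 0.55 and 0.47 by the first and second probes and -0.33 by the third, so the probes disagreed in direction there.

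Cdk6 encodes the other kinase partner, known for its part in the exit of stem cells from quiescence. It read 0.56, 0.45 and 1.23 in wild-type cells (HSC, LMPP, CLP) and 0.45, 1.13 and 0.41 on the null-labelled arrays (A_55_P2079630, chromosome 5). CLP was highest in wild type and LMPP on the null-labelled arrays. The genotype differences were -0.11, 0.68 and -0.82, none past 2-fold. No fitted difference passed, with limma adjusted p between 0.665 and 0.9753.

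**Figure D3:**
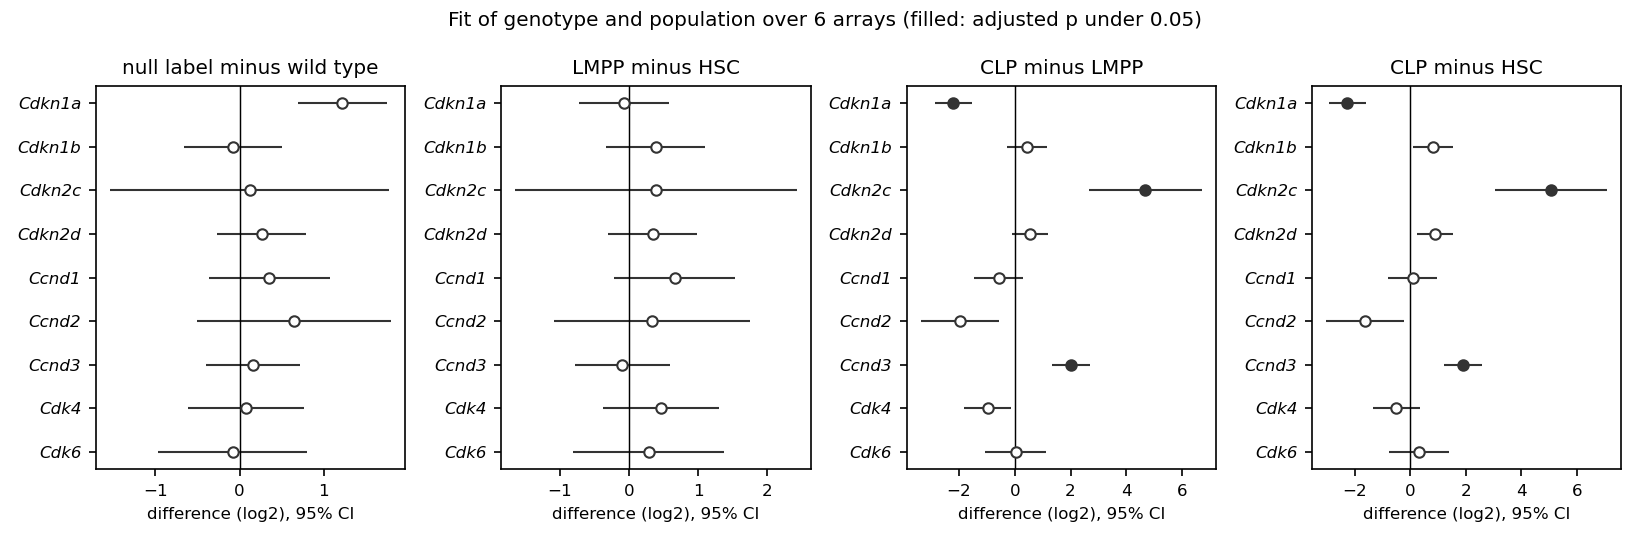
Fitted differences (log2, with 95% confidence intervals) of the 9 tested genes for genotype and for the 3 pairs of populations, over 6 arrays; filled points have a limma adjusted p under 0.05. Cdkn1a, Cdkn2c and Ccnd3 are filled in both comparisons with CLP and no gene is filled for genotype or for LMPP against HSC.

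Past 2-fold in both genotypes, CLP differed from LMPP in 3 of the 9 genes, against 16% of all genes compared, and from HSC in 3 of 9, against 15.7%. These were again Ccnd3 and Cdkn2c, higher, and Cdkn1a, lower. LMPP differed from HSC past 2-fold in both genotypes in 0 of the 9 genes, against 3.68% of all genes. Between genotypes, 2 of the 9 were past 2-fold in HSC, where 14.3% of all genes were, namely Cdkn1a, higher, and Cdkn2c, lower. In LMPP 2 of the 9 passed, against 9.92% of all genes, Cdkn1a and Cdkn2c, both higher. In CLP 2 of the 9 passed, against 20.3%, Cdkn1a and Ccnd2, both higher.

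**Figure D4:**
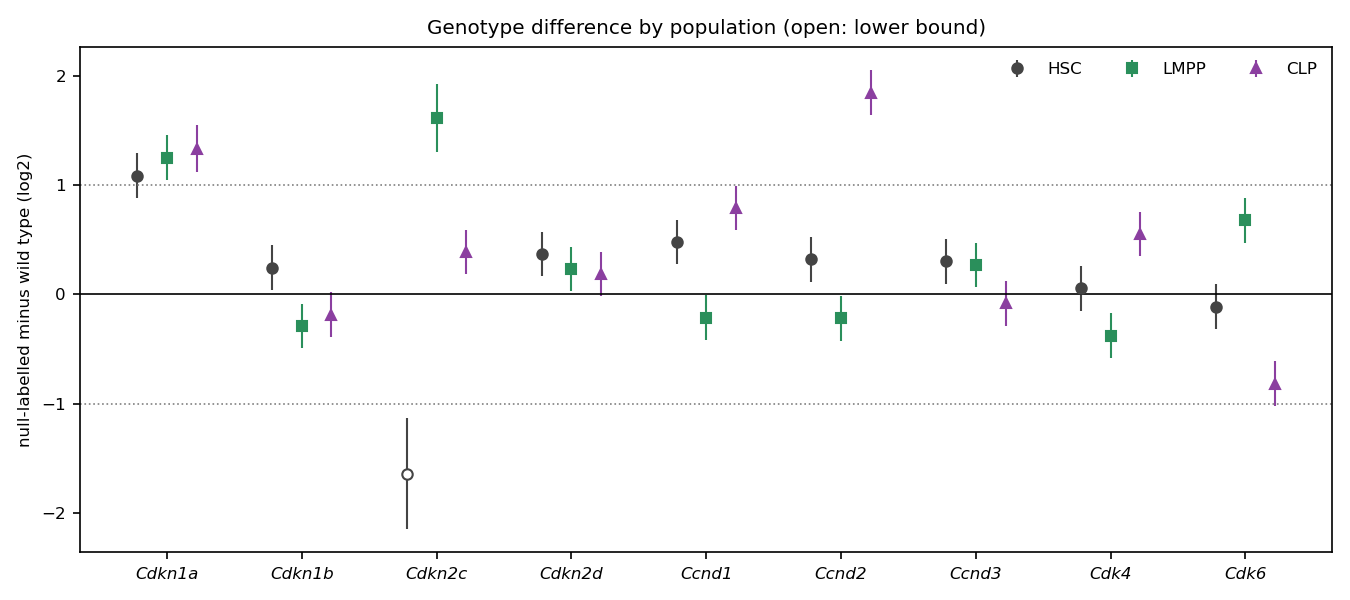
Difference of the null-labelled and the wild type array (log2, brightest probe) of the 9 genes in HSC, LMPP and CLP; bars are the scanner's own error, the open point is a lower bound in size, and dotted lines mark 2-fold. Cdkn1a lies above 2-fold in all 3 populations, Ccnd2 in CLP, and Cdkn2c lies on opposite sides in HSC and LMPP.

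The other genes of the G1 to S step were taken from a list of 42, of which 40 had a named probe and 37 were tested. For genotype 0 of the 37 were called, and the median difference was 0.07, against 0.06 over all genes. Between CLP and LMPP 6 rose and 3 fell, where 8.7% of all genes were called, and the median was 0.25, against -0.06 over all genes. Between CLP and HSC 8 rose and 2 fell, where 8.69% of all genes were called, and the median was 0.26, against 0.02. The members called in both comparisons include E2f2, an activating E2F factor (2.67 against LMPP, limma adjusted p = 0.0211, and 3.30 against HSC, limma adjusted p = 0.01672). Rb1, the retinoblastoma protein itself, also rose (2.51, limma adjusted p = 0.02301, and 2.72, limma adjusted p = 0.02182). Ccne1, the cyclin that activates Cdk2 late in G1, rose by 1.99 and 2.23 (limma adjusted p = 0.03772 and 0.03302).

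Cdc25a, a phosphatase that activates CDKs, rose by 1.74 against LMPP and by 1.75 against HSC. E2f8, an atypical E2F repressor, rose by 1.69 and 2.10, and Cdkn3, a phosphatase acting on CDKs, by 1.49 and 2.24. Against HSC only, Ccna2 (cyclin A2, 1.47) and Cdc25b (2.58) were also called, and the adjusted p of these rises in limma lay between 0.01742 and 0.047. Whether those changes differ from the ones against LMPP was not tested. Cdkn1c, the CIP/KIP inhibitor p57 that marks quiescent stem cells, fell by 2.5 and 2.96 (limma adjusted p = 0.03672 and 0.02989). It read -1.55, -1.20 and -5.42 in wild-type cells (HSC, LMPP, CLP) and -0.85, -2.11 and -4.63 on the null-labelled arrays, with both CLP values not well above background and raised to the detection floor in the fit. E2f5, a repressive E2F factor, fell by 2.21 and 1.65, with both CLP values (-4.31 and -4.52) not well above background and raised to that floor. Foxo1 fell by 1.40 against LMPP. Cdkn2b, the INK4 inhibitor p15, was not well above background on any array.

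**Figure D5:**
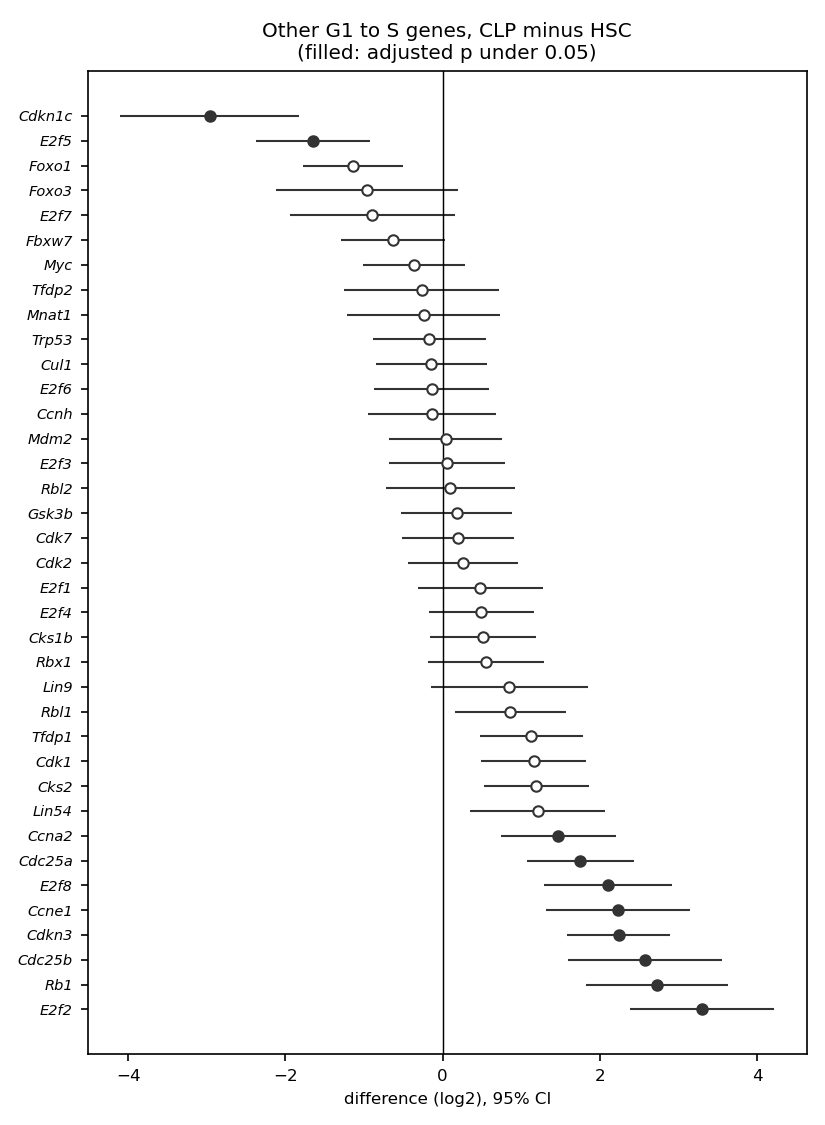
Fitted difference between CLP and HSC (log2, with 95% confidence intervals) of the 37 tested genes of the G1 to S list, over 6 arrays; filled points have a limma adjusted p under 0.05. E2f2 and Rb1 lie farthest to the right and Cdkn1c farthest to the left.

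Between genotypes 0 of 37 list members passed 2-fold in HSC and 0 in LMPP. In CLP 1 was higher, Mnat1 (a subunit of the CDK-activating kinase, 1.05), and 1 was lower, Foxo3 (-1.17), of 36 compared. Cdkn1a is a target of p53, so a list of 17 p53 targets, added after its values were seen, was set beside it. In HSC, where 14.3% of all genes were past 2-fold, 2 of 15 compared were higher, Phlda3 (1.02) and Btg2 (1.05), and Perp was lower (-1.53). In LMPP 0 of 15 passed, against 9.92% of all genes. In CLP, where 20.3% of all genes passed, Phlda3 was higher, by at least 2.03, and Sesn2 was lower (-2.14). The medians were 0.31, 0.32 and -0.05 in HSC, LMPP and CLP, against 0.13, -0.04 and 0.05 over all genes compared. In the fit 0 of 15 p53 targets tested were called for genotype. Their median fitted difference was 0.08, against 0.06 over all genes. Mdm2, a p53 target that also degrades p53, read 2.07, 1.96 and 1.91 in wild-type cells (HSC, LMPP, CLP) and 1.79, 2.23 and 2.04 on the null-labelled arrays.

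Some markers of other cell types were called in the CLP comparisons. Of all 13012 genes tested, 619 rose and 513 fell against LMPP, and 664 rose and 467 fell against HSC. Against LMPP, 5 of 8 granulocyte, 6 of 8 erythroid, 2 of 5 macrophage, 2 of 8 B lineage, 1 of 7 megakaryocyte and 1 of 5 T lineage genes tested rose, and against HSC 4, 4, 4, 3, 3 and 0 did. On each array the levels of a list's markers were put back on the linear scale and added up, and the log2 of the sum was taken. This log2 sum gives most weight to the brightest probes, although levels of different probes are not comparable. It was 8.04 to 8.60 for granulocyte markers on the HSC and LMPP arrays and 9.998 to 10.2 on the CLP arrays. For erythroid markers it was 4.48 to 6.61 and 9.49 to 9.60. For macrophage markers it was -0.76 to 0.97 and 3.17 to 3.71, and for B lineage markers 0.32 to 2.3 and 3.44 to 4.34. All 8 granulocyte markers were well above background on every array. Of 8 stem cell markers 5 fell against LMPP and 7 against HSC, and their log2 sum was 6.21 to 6.68 and 4.17 to 4.26. Of 18 proliferation genes 1 rose against LMPP and 3 against HSC, with medians of 0.62 and 1.07. Of 4 hepatocyte markers 0 were called in either comparison. The part of these cells in the changes of Ccnd3, Cdkn2c and Cdkn1a was not tested.

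Marker levels also differed between genotypes, where 14.3% of all genes compared were past 2-fold in HSC, 9.92% in LMPP and 20.3% in CLP. In LMPP 5 of 8 erythroid, 5 of 8 megakaryocyte, 3 of 8 granulocyte, 3 of 5 macrophage and 5 of 8 B lineage genes were past 2-fold higher on the null-labelled array, and 0 were lower. In HSC 4 of 8 erythroid, 1 of 7 megakaryocyte, 1 of 8 granulocyte, 1 of 4 macrophage and 5 of 7 B lineage genes were higher, and 1 erythroid and 1 macrophage gene were lower. In CLP 4 of 10 B lineage and 2 of 6 macrophage genes were higher, 2 of 9 megakaryocyte genes were lower (median of the 9, -0.82), and 0 of 9 erythroid and 0 of 8 granulocyte genes passed. Of 5 T lineage genes 3 were lower in HSC, 0 passed in LMPP, and 1 was higher and 1 lower in CLP. Of hepatocyte genes 1 of 5 was higher in HSC and 2 of 4 were lower in LMPP. In CLP 1 of 3 was higher and 1 lower. Of stem cell genes 0 of 8 passed in HSC and 1 of 8 was higher in LMPP. In CLP 1 of 7 was higher and 2 were lower. The part of these cells in the Cdkn1a differences was not tested.

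The genes with the most similar profile were sought for the 4 members with the widest range among those well above background on all arrays. Likeness was the Euclidean distance over the 6 log2 levels, each gene centred on its own mean, over 11017 genes. For Cdkn1a (range 3.49) the nearest were Nek8, Fndc10 and Wdr83, at distances of 0.738, 0.765 and 0.775. For Ccnd2 (range 2.99) they were Zfp608, Cand2 and Ankrd13b, at 0.257, 0.399 and 0.413. For Ccnd3 (range 2.18) they included Tmed3 and Cd24a, at 0.204 and 0.230. For Cdk4 (range 1.43) they were Parp9, Smim10l1 and Utp11, at 0.146, 0.146 and 0.201. The Cdkn1a neighbours were the most distant of the 4 sets. The distance is not scaled to a gene's range, and Cdkn1a had the widest range of the 4. The Nek8 levels were -0.80, -1.48 and -2.81 in wild-type cells, with 0.19, 0.03 and -1.63 under the null label.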

How the data were processed

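Values start from spot intensity, linear and not log-transformed, in the scanner files as deposited, made with Agilent Feature Extraction 10.10.1.1 per the file headers and version 10.10 per the submitters' processing notes. A value table from the authors holds, in each column, the scanner software's processed signal times 1 constant per array (5.71 to 8.77), so it is linear intensity too, and the basis of the constants is unknown. Its medians were 200.1 (HSC), 140.2 (LMPP) and 120.7 (CLP) in wild type, and 165.3, 145.6 and 124.9 with the null label; genes were not centred, and single-colour arrays have no direction. All arrays lay on 1 slide, per the file headers.

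From the processed intensity, log2 values of the deposited spots were centred on each array's 75th percentile over the 59305 non-control spots. Outlier-marked spots, 154 to 181 on an array, were dropped and the spots of a probe averaged. Probes were named by accession in the RefSeq table of GRCm38.p6 (27235 of 55681 probes). The brightest probe stood for the 5476 genes with more than 1. The scanner error of a difference combines the error that the software gives for each signal.

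limma 3.58.1 in R 4.3.3 (lmFit, eBayes) fitted genotype and population over 6 arrays with 2 residual degrees of freedom, for genes whose signal was rated well above background on at least 3 arrays. Dim values were raised to the lowest signal well above background, -4.19 to -3.99. Calls used a Benjamini-Hochberg adjusted p under 0.05. Labels name no separate animals, so p-values measure only the spread between these arrays, and the number of arrays limits the precision. The script was tested on simulated data. Genes and lists (G1 to S step, erythroid, megakaryocyte, B lineage, T lineage, granulocyte, macrophage, hepatocyte, stem cell, proliferation, p53 targets) were chosen with earlier results of these data known, the p53 list and the motifs after values or sequences were seen. The genes named are all 10 members, list members called in a fit or largest past 2-fold, and the 3 nearest profiles of the 4 members with the widest range, of which 1 is not reported here. Alternatives were 3 other centrings or normalizations, normexp (offset 50), the authors' values, the mean over probes, other filters and folds, and each array left out. The scanner files used here give a median and not a mean spot signal, so normexp used the median.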

Additional observations from a re-analysis of the deposited data

Results flagged for a closer look

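Cdkn2c differed between genotypes in opposite directions in 2 populations: null minus wild type was -1.64 on the log2 scale in HSC, where the null-labelled value was not well above background, and 1.61 in LMPP. Over all settings it ranged from -2.32 to -0.73 in HSC and from 0.64 to 1.66 in LMPP. Cdk6 was higher by 0.68 in LMPP and lower in CLP (-0.82). Whether these genotype differences differ between populations was not tested, since each rests on 2 arrays. The dim Cdkn1a probe, which enters no fit of the genes, was well above background in LMPP of both genotypes, at -2.44 in wild type and -2.66 on the null-labelled array. A Cdkn2a probe outside the fit was well above background on the null-labelled CLP array alone, at -1.33.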

How the results depend on the processing

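The fits called 0 of the 9 genes for genotype and for LMPP against HSC under all alternatives. Between CLP and LMPP and between CLP and HSC the count of 3 became 0 with no filter on background. With dim values left as measured Cdkn2c lost both calls (limma adjusted p = 0.07164 and 0.05737). Where a gene had to be well above background on all 6 arrays, Cdkn2c was not tested. Leaving out 1 array left 1 residual degree of freedom, whichever the array. The 3 calls were lost without any of the HSC or LMPP arrays, as were all others of the whole table. Without the null-labelled CLP array the 3 calls stayed and Ccnd2 was added. Without wild type CLP the 3 calls stayed against LMPP, and that of Ccnd3 was lost against HSC. Over the whole table the calls between CLP and HSC went from 1131 to 1757 with median centring, 1977 with normexp and 219 with no filter. Those between CLP and LMPP went from 1132 to 2028 with normexp and 202 with no filter. The share of higher calls between CLP and HSC moved with centring, from 664 higher and 467 lower to 1378 and 379 with the median and 434 and 538 with detected probes. The cause was not tested. Cdkn1a lost its call against HSC with the mean over its probes (-1.45, limma adjusted p = 0.0843).

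The counts past 2-fold between genotypes, 2 in each population, became 0 in HSC and 1 in LMPP and CLP with normexp, 1 in HSC with detected-probe centring and with the authors' values, and 1 in LMPP and CLP with the mean over probes. They became 1 in each at 3-fold and 4 in CLP at 1.5-fold, and CLP against HSC became 6 from 3 at 1.5-fold. The count in all 3 populations, 1, became 0 with normexp, detected-probe centring, the authors' values, the mean over probes and 3-fold.

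Median centring moved null minus wild type in HSC by 0.18 over all genes, and centring on detected probes by -0.14. Among differences under 2-fold, that of Cdk4 and of Cdk6 in HSC (-0.080 to 0.24 and -0.25 to 0.068) and of Ccnd3 in CLP (-0.14 to 0.022) had no fixed sign over the settings.

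The fitted differences that turned were all uncalled. With median centring LMPP against HSC became 0.083 for Ccnd3 and 0.11 for Cdkn1a, and with the mean over probes 1.12 for Cdkn1a. The Cdkn1a genotype difference in CLP, past 2-fold at 1.33, became -0.14 with the mean over probes, by construction, since the dim probe is then averaged in. CLP against LMPP became -0.057 for Cdk6 with detected-probe centring. CLP against HSC became -0.15, -0.052 and -0.10 for Ccnd1 with detected-probe centring, quantile normalization and the authors' values. The Cdkn2c genotype difference became -0.11 with no filter and with values as measured. With 1 array left out, the genotype difference ranged from -0.62 to 1.0 for Cdkn2c, -0.16 to 0.30 for Cdk4, -0.46 to 0.28 for Cdk6 and -0.24 to 0.031 for Cdkn1b. LMPP against HSC ranged from -0.32 to 0.98 for Ccnd2, -0.20 to 0.0080 for Ccnd3, -0.29 to 0.86 for Cdk6, -0.17 to 0.035 for Cdkn1a and -0.93 to 1.71 for Cdkn2c. CLP against LMPP ranged from -0.54 to 0.60 for Cdk6, and CLP against HSC from -0.25 to 0.41 for Ccnd1 and -0.24 to 0.86 for Cdk6.

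Of the single-gene values under the alternatives, 966 kept their direction and call or moved by less than the scanner error, 104 moved by more, 34 lost a call, 4 gained one and 31 turned.

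No pairing by animal was possible, because each group has 1 array and the labels name no separate animals. The fit compared genotypes within populations and populations within genotypes.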
